A study of Rattus norvegicus with 6 samples.

Results

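The enzymes described here make serine and pass its carbon into the folate and methionine cycles. They are a named set of 10 rat genes, Phgdh, Psat1, Psph, Shmt1, Shmt2, Mthfd1, Mthfd2, Mthfd1l, Cbs and Gnmt, and their probes were found by exact match of the gene symbol in the authors' deposited table. Of these, 9 genes had a probe, 12 probes in all among the 30367 gene probes of the array, which name 19958 genes. Mthfd1l matched no probe and is not analysed here. The genes were chosen by name once their differences between iron-deprived and control samples on these same arrays were known, so the values below are descriptions and carry no test.

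RNA was measured on 6 one-colour arrays that lie on 1 slide. FAO cells, a rat liver cell line, received 100 µM deferoxamine (DFO), an iron chelator, for 24 h, against cultures labelled as untreated, which the protocol says were given vesicle solution. Wistar rats were fed an AIN-93G diet lacking iron for 4 weeks, against the complete AIN-93G diet, and liver and kidney were profiled. The labels call these animals mice in places and give the organism as rat, and their age is not given in the sources used here. Each group is a single array of RNA pooled from 3 FAO cultures or 6 animals, so no spread between cultures or animals can be seen, no test between groups was possible and no p-value is given. FAO is 1 line, and it stands for hepatocytes only as far as it keeps their genes.

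Serine is built from a glycolytic intermediate by Phgdh, Psat1 and Psph, which act in that order. The Shmt enzymes then split serine into glycine and a carbon unit carried by tetrahydrofolate, which the Mthfd enzymes oxidise and reduce for the synthesis of purines, thymidylate and methionine. Serine also enters the transsulfuration route to cysteine through Cbs, and Gnmt uses glycine to consume the methyl donor S-adenosylmethionine. In the adult the kidney is a known site of serine synthesis, Gnmt is an abundant liver protein, and Mthfd2 is known for its expression in embryonic and dividing cells.

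Values are scaled signals in arbitrary units: the background-subtracted intensity of a spot with the arrays brought to a common 75th percentile, taken over probes that all 6 arrays measured well above background. They can be compared between arrays for 1 probe, and never between probes. Differences are log2 of the deprived array over its control, written with ± a spot standard error. This error is pooled over probes of similar signal. It reflects how far repeats of a probe on an array disagree and nothing about animals or cultures. A gene is called higher or lower when the difference is at least 2-fold, a log2 difference of 1. A probe counts as well above background on an array when all its spots do, and where only 1 array of a pair passes, the fold is a lower bound written as at least N-fold.

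The arrays differed in quality. The share of probes well above background was 48.8% with DFO and 48.4% in untreated FAO cells, 47.7% and 40.1% in iron-free and control liver, and 40.5% and 37.7% in iron-free and control kidney. Of 264 blocks of 16 by 16 spots, repeated spots disagreed by a median of over 0.25 log2 in 12 blocks with DFO, 0 in untreated cells, 1 in iron-free liver, 53 in control liver, 2 in iron-free kidney and 5 in control kidney. Spots in such noisy blocks are named where a result rests on them. Hepatocyte markers were well above background for 6 of 6 genes on each FAO and liver array and for 0 of 6 in kidney, and proximal tubule markers for 5 of 5 on both kidney arrays. Dividing-cell markers were measured for 5 of 5 genes in FAO cells, and those of liver are given beside the liver results.

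The serine synthesis enzymes, Mthfd2, Cbs and Gnmt differed widely between tissues. Phgdh, phosphoglycerate dehydrogenase, had its lowest signals on the liver arrays, 2163 with the iron-free diet and 337 with the control diet. Its signals were 28233 with DFO and 40044 in untreated FAO cells, and 17966 and 23637 in iron-free and control kidney. The untreated FAO signal was thus 119-fold and the control kidney signal 70.1-fold that of control liver. Psat1, the aminotransferase of the second step, stood in the same array order as Phgdh, at 15399 with DFO and 15935 in untreated FAO cells, 9422 and 13069 in iron-free and control kidney, and 858 and 210.2 in iron-free and control liver. For Psph, the phosphatase of the last step, the control arrays gave 16.6-fold more in untreated FAO cells and 7.8-fold more in kidney than in liver. The mean signals of all 3 genes had the same order over the 6 arrays, with control liver lowest and untreated FAO cells highest. The spots of Psat1 with DFO and in untreated cells overlapped, so the 2 FAO arrays are not ordered beyond their spots for that gene, and the same holds for Psat1 and Psph between the 2 kidney arrays. The control kidney spots of Psat1 also overlap those of both FAO arrays.

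Mthfd2, the mitochondrial methylenetetrahydrofolate dehydrogenase and cyclohydrolase, divided the arrays differently. Its 10-spot probe stood at 6921 with DFO and 6154 in untreated FAO cells, at 501 and 127 in iron-free and control liver, and at 171 and 117 in iron-free and control kidney, where the control array was not well above background. Untreated FAO cells were 48.3-fold above control liver, and control kidney, far above control liver for Phgdh and Psat1, was no higher than control liver for Mthfd2. Gnmt, glycine N-methyltransferase, ran the opposite way to the serine enzymes, with 37400.3 and 69587 in iron-free and control liver, 3416 and 4163 in iron-free and control kidney, and 244 and 401 with DFO and in untreated FAO cells. Control liver was 16.7-fold above control kidney and 174-fold above untreated FAO cells. Cbs, cystathionine beta-synthase, a heme protein, was also highest in liver, 6.03-fold over untreated FAO cells and 1.45-fold over kidney on the control arrays.

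The remaining enzymes varied less over the arrays, though Shmt2 was 2.04-fold higher in untreated FAO cells than in control kidney. Shmt1, the cytosolic serine hydroxymethyltransferase, stayed between 2379 in iron-free liver and 3231 in control kidney on 5 arrays, with control liver alone above that at 5235. Shmt2, its mitochondrial counterpart, ranged between 2391 in iron-free kidney and 5278 in untreated FAO cells. Mthfd1, the cytosolic enzyme that interconverts folate carbon units, ranged between 1948 in iron-free liver and 3474 in untreated FAO cells. Several neighbours in these orders overlap spot by spot, among them both liver arrays and both kidney arrays for Shmt2 and for Mthfd1.

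**Figure D1:**
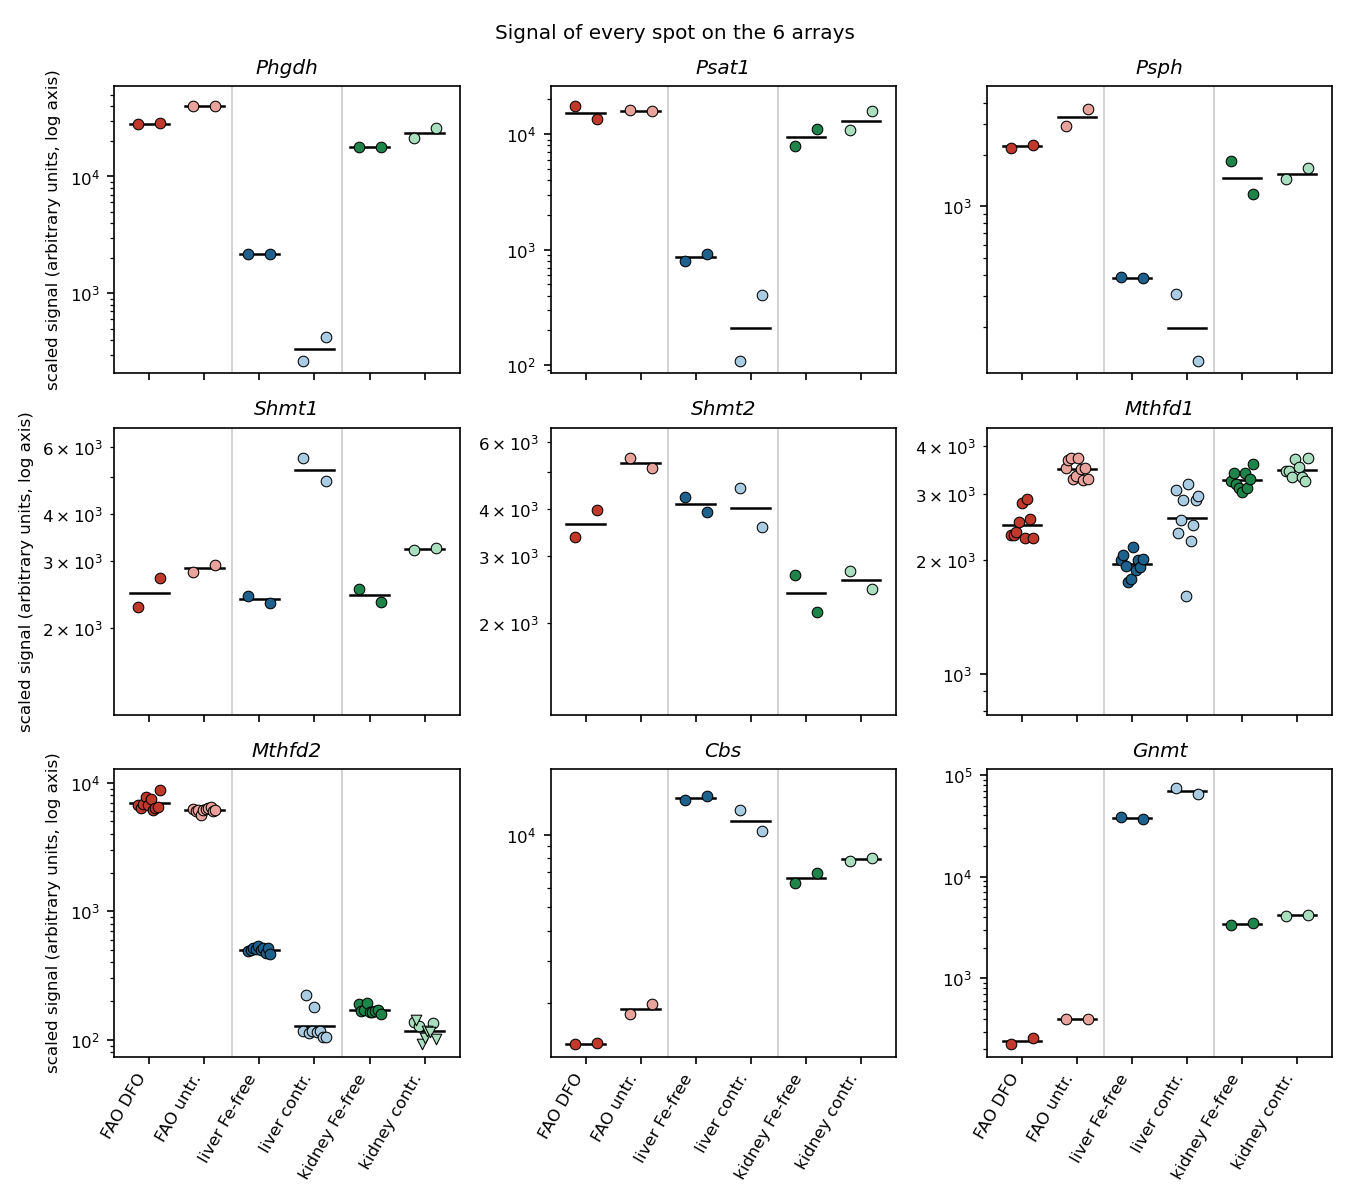
Scaled signal of every spot (log axis, arbitrary units, a separate scale for each gene) on the 6 arrays. Points are spots, triangles are spots not well above background and bars are means. The 2 iron-free liver spots of Phgdh stand at 2155 and 2170.3, above both control liver spots, and the FAO and kidney spots stand higher still.

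In liver, 4 of the 9 enzymes differed at least 2-fold between the diets. Phgdh, Psat1 and Mthfd2 were higher with the iron-free diet, where 6.52% of the 10172 genes measured were at least 2-fold higher. Shmt1 was lower, as were 3.01% of genes. The enzymes' median difference was 0.31, and that of all genes measured in liver was 0.02.

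Phgdh had spots at 2170.3 and 2155 in iron-free liver, against 266 and 427 in control liver. Both iron-free spots lie above both control spots, and the control spot at 427 lies in a noisy block. The difference was 2.68 ± 0.29 (spot SE), or 6.42-fold, rank 51 among the 10172 genes. Over every pairing of single spots it ran between 2.34 and 3.03, and it was 3.04 without spots in noisy blocks.

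Psat1 had spots at 805 and 915 in iron-free liver, against 109.5 and 403 in control liver. The iron-free spots agree while the control spots are far apart, and the lower of these lies in a noisy block. The difference was 2.03 ± 0.31, or 4.08-fold, where the gene's own 4 spots give a standard error of 0.94. Single-spot pairings gave 0.996 to 3.06, the lowest just short of 2-fold. Without the spot in the noisy block the difference was 1.11, so its size depends on that spot. It stayed past 2-fold there, resting on 1 control spot.

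Psph had spots at 387 and 383 in iron-free liver, against 309 and 127 in control liver. The spots do not overlap, and the control pair is again the one that disagrees. The difference was 0.96 ± 0.31, or 1.95-fold, just short of the threshold, where the gene's own spots give a standard error of 0.64. All 3 serine synthesis enzymes were therefore on the same side in liver, with 2 of them past 2-fold.

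Mthfd2 ranged between 466 and 538 over 10 spots in iron-free liver (median 501), against 105 to 221 over 9 spots in control liver (median 116). No iron-free spot overlapped a control spot. The difference was 1.98 ± 0.20, or 3.93-fold, and single-spot pairings gave 1.08 to 2.36. Each of the other Mthfd2 probes has 1 spot, and in control liver that spot was not well above background and lay in a noisy block. The first stood at 127 in iron-free liver, against 20.8 in control liver, a bound of at least 2.83-fold. The second stood at 48.6 in iron-free liver, against 21.9 in control liver, a bound of at least 1.08-fold.

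Shmt1 had spots at 2427 and 2332 in iron-free liver, against 5622 and 4875 in control liver, the second control spot in a noisy block. Both control spots lie above both iron-free spots. The difference was -1.14 ± 0.25, or 2.2-fold lower, with single-spot pairings between -1.27 and -1.01. The call was lost when the arrays were scaled to the median of their detected probes (-0.56, or -1.15 relative to the median of 0.59 that all genes then had) and with normexp background correction (-0.48). Shmt2, the mitochondrial isozyme, had spots at 4303 and 3928 in iron-free liver, against 4535 and 3578 in control liver, which overlap, and its difference was 0.03 ± 0.25, with a sign that changed between scalings.

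Gnmt had spots at 38294 and 36527 in iron-free liver, against 73935 and 65494 in control liver. The spots do not overlap, and the difference of -0.90 ± 0.27, or 1.86-fold lower, falls short of the threshold. With normexp correction it was -1.27 and passed it, and with scaling to the median of detected probes it was -0.32. Cbs had spots at 13945 and 14421 in iron-free liver, against 12672 and 10349.8 in control liver, a difference of 0.31 ± 0.27. Mthfd1 ranged between 1756 and 2164 in iron-free liver and between 1610.2 and 3183 in control liver, where 3 of the 10 spots lie in noisy blocks. Its spots overlap, and the difference was -0.40 ± 0.12. With scaling to each array's detected median it was 0.18, which is -0.41 relative to the median of all genes.

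Other cell types moved with the liver result. Of the 5 dividing-cell markers, 4 were at least 2-fold higher in iron-free liver, with a summed signal of 2714 in iron-free liver and 406 in control liver, and 5 of 5 against 2 of 5 were well above background. Among the erythroid markers all 4 measured of 6 were higher, with sums of 11499 and 2488 in iron-free and control liver. Of the 5 leukocyte markers 3 were higher, with sums of 10869.7 and 5036, and the 6 hepatocyte markers summed to 744009.6 and 619889. Such sums, here and in kidney, add signals of different probes, dim ones too, so the brightest probe weighs most. They do not measure the amount of a cell type. The part of these cell types in the enzymes' differences was not tested. In such bulk RNA fewer cells of a type and less RNA per cell cannot be told apart.

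**Figure D2:**
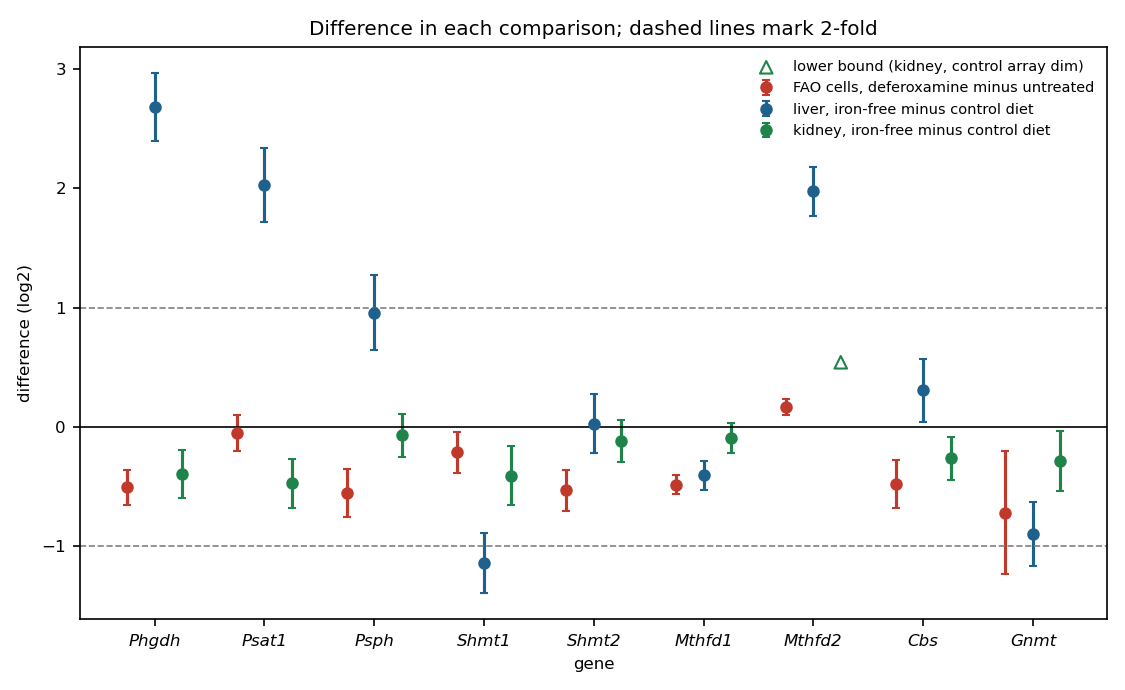
Log2 difference of each enzyme in FAO cells (DFO minus untreated), liver and kidney (iron-free minus control diet). Bars are ± 1 spot standard error and say nothing about animals or cultures, dashed lines mark 2-fold, and the open triangle is a lower bound. Only liver points lie outside the dashed lines: Phgdh at 2.68, Psat1 at 2.03, Mthfd2 at 1.98 and Shmt1 at -1.14, the last inside them when arrays are scaled to the median of detected probes or corrected with normexp.

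The promoters of these 4 genes are shown because they are the ones past 2-fold in liver. The windows run 250 bases before to 50 bases after the start of the gene in the RefSeq table of assembly GRCr8, a different build from the rn4 named for the array, and are written 5′ to 3′ on the gene's strand. Phgdh is at chr2:188624740-188625039, Psat1 at chr1:222645359-222645658, Mthfd2 at chr4:117380301-117380600 and Shmt1 at chr10:45990292-45990591, all on the minus strand. Capitals mark matches, on either strand, to any of the 5 motifs described next.
Phgdh: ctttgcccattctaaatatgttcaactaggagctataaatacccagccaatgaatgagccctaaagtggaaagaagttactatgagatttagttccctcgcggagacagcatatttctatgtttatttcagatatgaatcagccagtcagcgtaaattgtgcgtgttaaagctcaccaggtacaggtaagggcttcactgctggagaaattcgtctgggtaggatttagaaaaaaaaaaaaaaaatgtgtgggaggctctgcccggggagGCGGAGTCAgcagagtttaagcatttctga
Psat1: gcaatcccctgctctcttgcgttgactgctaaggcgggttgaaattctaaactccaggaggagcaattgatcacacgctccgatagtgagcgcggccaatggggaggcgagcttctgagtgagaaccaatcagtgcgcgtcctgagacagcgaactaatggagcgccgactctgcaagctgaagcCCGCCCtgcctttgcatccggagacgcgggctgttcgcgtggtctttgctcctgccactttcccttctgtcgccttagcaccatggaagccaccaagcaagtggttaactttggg
Mthfd2: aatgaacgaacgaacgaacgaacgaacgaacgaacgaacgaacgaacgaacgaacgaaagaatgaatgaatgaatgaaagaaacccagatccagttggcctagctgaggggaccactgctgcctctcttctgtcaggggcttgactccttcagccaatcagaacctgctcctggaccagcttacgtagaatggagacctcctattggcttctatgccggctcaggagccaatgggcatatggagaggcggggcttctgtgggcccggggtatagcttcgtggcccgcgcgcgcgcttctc
Shmt1: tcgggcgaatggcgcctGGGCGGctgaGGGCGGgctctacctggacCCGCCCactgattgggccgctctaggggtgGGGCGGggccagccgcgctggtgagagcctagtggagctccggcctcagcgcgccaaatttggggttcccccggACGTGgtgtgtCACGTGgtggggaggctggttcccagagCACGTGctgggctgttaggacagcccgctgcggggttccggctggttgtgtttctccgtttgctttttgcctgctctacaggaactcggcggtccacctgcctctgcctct

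A promoter was in the table for 8 of the 9 enzymes, all but Mthfd1. The motifs searched on both strands were TGATGNAA (core of the element bound by ATF4, the factor of the amino acid response), CACGTG (the E-box, bound by MYC and related factors), ACGTG (the core bound by hypoxia-inducible factors, contained in the E-box), TGACNNNGC (core of the NRF2 element) and GGGCGG (bound by Sp1). The ATF4 core was in 0 of the 8, and in 3.98% of all 33469 promoters in the table. The E-box was found in 1 promoter, that of Shmt1, at positions -89 to -84 and -61 to -56 from the start, against 6.42% of all. The hypoxia core was in 3 (Shmt1, Shmt2 and Cbs), against 19.3%, and the NRF2 core in 2 (Phgdh at positions 21 to 29, and Gnmt), against 12.1%. The Sp1 box was in 5, including 1 in Psat1 and 4 in Shmt1, against 33.1%, and the Mthfd2 window held none of the 5 motifs. These are matches of letters in a short window and show no binding.

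In FAO cells, no enzyme differed 2-fold, and the difference was below 0 for 8 of 9, as it was for 47% of all genes measured. Among the 10696 genes measured, 4.05% were higher and 6.44% lower by 2-fold or more. The enzymes' median difference was -0.48, against 0.03 for all genes measured. The 8 negative signs held under all 8 alternative settings for each gene, but 1 setting, averaging a gene's probes, could not change these. Spots of the treated and untreated arrays overlapped for Psat1 and Mthfd2. How often the spots of all genes are apart was not counted.

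Phgdh had spots at 28031 and 28437 with DFO, against 40222 and 39867 in untreated cells. Both arrays' spots agree closely and are apart, and the difference was -0.50 ± 0.15, or 1.42-fold lower. Psph, with spots at 2195 and 2285 with DFO, against 2946 and 3674 in untreated cells, differed by -0.55 ± 0.20. Psat1 had spots at 17650 and 13435 with DFO, against 16120.3 and 15751 in untreated cells. The DFO spots lie on either side of the untreated ones, and the difference was -0.05 ± 0.15. Of the serine synthesis enzymes, the first and the last thus had DFO spots below all untreated spots and the middle one did not.

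Shmt2 had spots at 3359.6 and 3979 with DFO, against 5440.4 and 5121 in untreated cells, a difference of -0.53 ± 0.17 that reached -0.99 with normexp correction. Shmt1, at 2264 and 2714 with DFO, against 2807 and 2937 in untreated cells, differed by -0.21 ± 0.17. Mthfd1 ranged between 2284 and 2905 over 9 spots with DFO (median 2377), against 3263 to 3736 over 10 spots in untreated cells (median 3488). No spots overlap, and its difference of -0.48 ± 0.08 rests on the most spots of any of the enzymes below 0.

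Mthfd2 was the exception in sign, with 6144 to 8828 over 10 spots with DFO (median 6734), against 5661 to 6435 over 10 spots in untreated cells (median 6187). These spots overlap, and the difference was 0.17 ± 0.07. Its single-spot probes read 1485 and 765 with DFO, against 1528 and 736 in untreated cells, differences of -0.04 and 0.06, so the 3 probes do not share a sign. Cbs had spots at 1355 and 1372 with DFO, against 1804 and 1998 in untreated cells, a difference of -0.48 ± 0.20. Gnmt, dim in this line, had spots at 227 and 262 with DFO, against 399.6 and 402 in untreated cells. Its difference of -0.72 ± 0.52 has the largest spot standard error of the 9, which is that of probes of similar signal. The gene's own spots give 0.10. The second Cbs probe, of 1 spot, was not well above background on any of the 6 arrays.

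In kidney, no enzyme differed 2-fold either, among 8952 genes of which 3.11% were higher and 1.26% lower by 2-fold or more. The difference was below 0 for 8 of 9 enzymes, against 55% of all genes measured. Scaling to the median of detected probes moved all kidney genes up alike, to a median of 0.17, so that 5 of 9 were below 0. The 8 of 9 below that median are no separate result, since such a shift leaves the order of the genes nearly unchanged. The enzymes' median was -0.26, against -0.03 for all genes measured. Spots of the diets overlapped for Psat1, Psph, Shmt2 and Mthfd1, and how often they are apart over all genes was not counted. Of 4 erythroid markers measured in kidney 1 was higher, with sums of 3498 and 1145 in iron-free and control kidney, and of 3 dividing-cell markers 0 were, and their part in these values was not tested.

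Phgdh had spots at 17906 and 18027 in iron-free kidney, against 21545 and 25934 in control kidney. The spots are apart, and the difference was -0.40 ± 0.20. Psat1 had spots at 7937 and 11184 in iron-free kidney, against 10779.5 and 15844 in control kidney, which overlap, and differed by -0.47 ± 0.20. Psph had spots at 1830 and 1183 in iron-free kidney, against 1433 and 1663 in control kidney, and differed by -0.07 ± 0.18. The own spots of Psat1 and Psph give larger standard errors in kidney, 0.37 and 0.33. Shmt1, at 2538 and 2345 in iron-free kidney, against 3208 and 3255 in control kidney, differed by -0.41 ± 0.25 with spots apart. In no tissue was Shmt1 higher with iron deprivation.

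Gnmt had spots at 3332 and 3502 in iron-free kidney, against 4085 and 4242 in control kidney, a difference of -0.29 ± 0.25. Cbs had spots at 6289 and 6962 in iron-free kidney, against 7809.9 and 8036 in control kidney, a difference of -0.26 ± 0.18. Both genes' spots are apart between the diets. Shmt2, with spots at 2677 and 2135 in iron-free kidney, against 2733 and 2450.4 in control kidney, differed by -0.11 ± 0.18. Mthfd1, between 3022 and 3600 in iron-free kidney and between 3247 and 3729 in control kidney, differed by -0.09 ± 0.12. With scaling to the median of detected probes Psph, Shmt2 and Mthfd1 were positive in value and below the median of all genes.

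Mthfd2 ranged between 157 and 192 over 9 spots in iron-free kidney (median 168), against 92.6 to 141 over 9 spots in control kidney (median 116). The spots are apart, but only 3 of the 9 control spots were well above background, against 9 of 9 in iron-free kidney, so the difference is a bound of at least 1.46-fold. Neither kidney array measured its other probes well above background. Mthfd2 was thus the enzyme on the higher side in all 3 comparisons for its 10-spot probe, at sizes between 0.17 in FAO cells and 1.98 in liver. In FAO cells, though, its spots overlapped and its probes did not share a sign, and the kidney value is a bound. Whether the diet difference in liver differs from that in kidney was not tested, since there is 1 array per group.

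**Figure D3:**
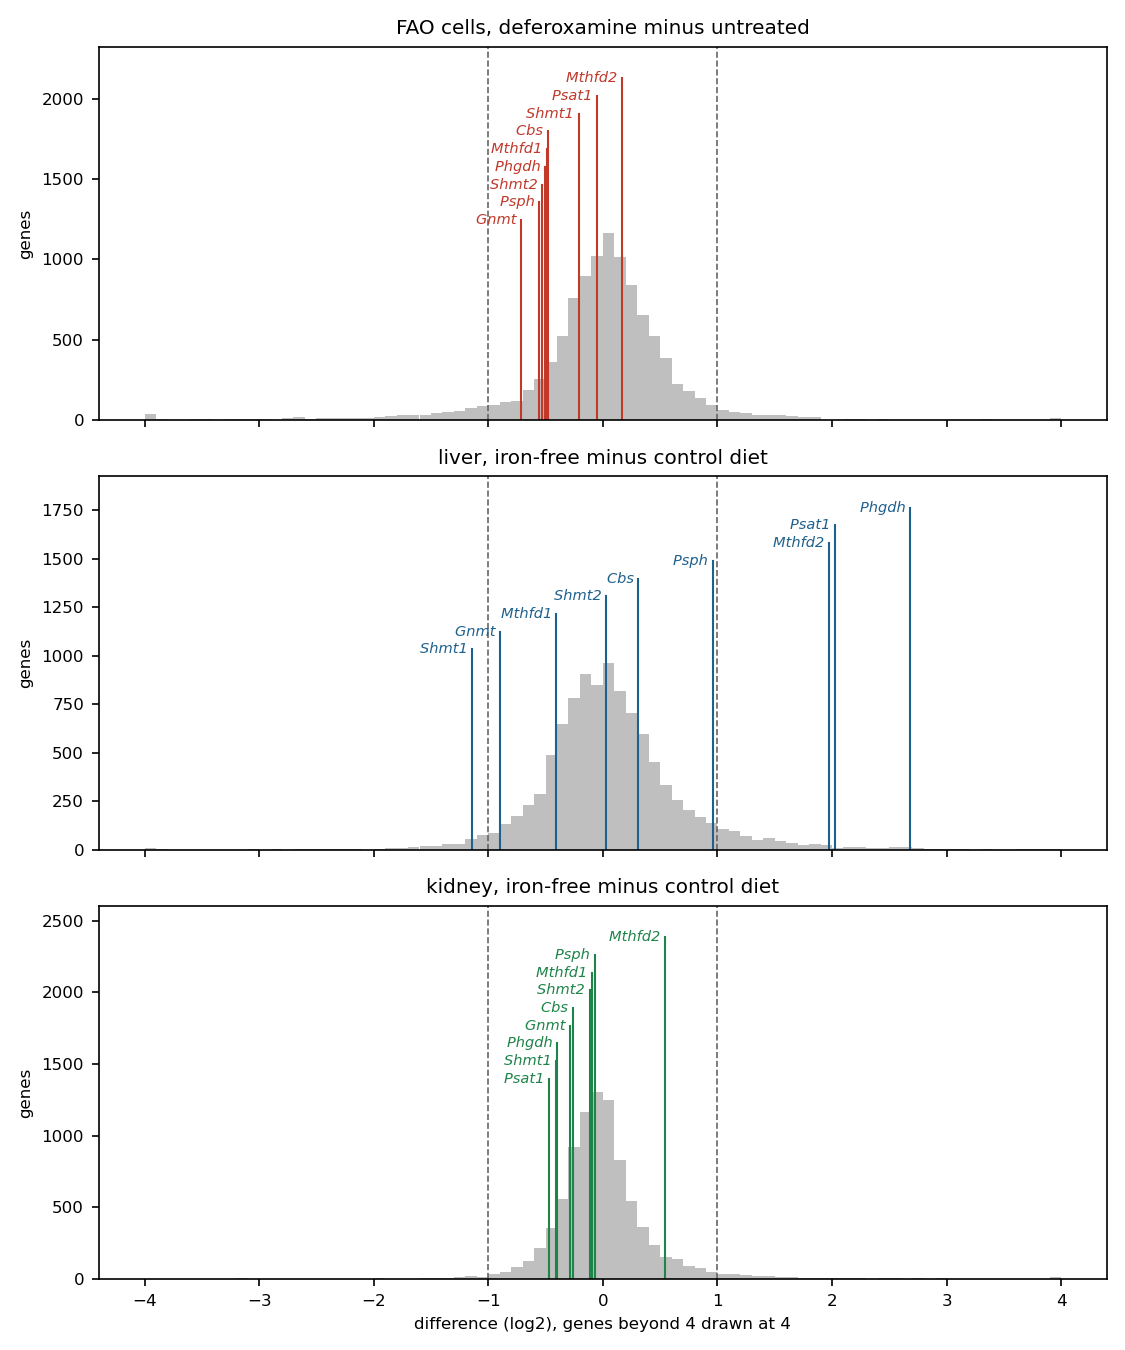
Log2 differences of all genes measured in each comparison (grey, number of genes per bin) with the 9 enzymes as coloured lines, whose heights only separate the names. Dashed lines mark 2-fold and Mthfd2 in kidney is a lower bound. The FAO lines lie between -0.72 and 0.17 and the kidney lines between -0.47 and 0.54, while the liver lines spread between -1.14 and 2.68.

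Among the 6463 genes that passed background on all 6 arrays, the ones most like each enzyme were found, except for Mthfd2, which did not pass in control kidney. Likeness was the root mean square distance between log2 signals over the 6 arrays after centring each gene on its own mean, a description over 6 points that mostly reflects tissue. Phgdh and Psat1 were 0.25 apart, and no gene outside the set came closer to either. For Psat1 the nearest outside gene was Rtkn at 0.29, then Zfp503 at 0.60, and for Phgdh it was Rtkn at 0.35, then Slc25a4, a mitochondrial ADP/ATP carrier, at 0.70. Rtkn was itself 1.91 higher in iron-free than in control liver, but both liver arrays entered the distance, so this likeness is part of how it was found. For Psph the nearest were Tedc1 at 0.22 and Pacs1 at 0.24, and for Gnmt, Apol3l1 at 0.46 and Tgfbi at 0.59.

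Shmt1 was nearest to Mterf3, a regulator of mitochondrial transcription, at 0.12, and Top3b, a topoisomerase, at 0.14. Both were lower in iron-free than in control liver, at -1.22 and -1.36, which the distance itself selects for. Shmt2 was nearest to Psmb7, a proteasome subunit, and Ubxn4, both at 0.11. Mthfd1 was nearest to Coq6, of coenzyme Q synthesis, at 0.06, and Hnrnph3 at 0.09, and Cbs to Agmat at 0.16 and Xdh, xanthine dehydrogenase, at 0.19.

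Other genes of the folate cycle were mostly inside 2-fold. In FAO cells 0 of 17 measured were higher and 3 lower, with a median of -0.18. Among them were Aldh1l1, the cytosolic formyltetrahydrofolate dehydrogenase, at -1.41 ± 0.39, and Mthfs, at -1.21 ± 0.27, the 2 that stayed lower without noisy blocks. In liver 0 of 16 were higher and 2 lower, Ftcd, which takes carbon units from histidine breakdown, at -1.30 ± 0.27, and Slc25a32, the mitochondrial folate carrier, at -1.48 ± 0.44. With scaling to the median of detected probes, which gave all liver genes a median of 0.59, Ftcd was at -0.72 and Slc25a32 at -0.90, or -1.31 and -1.49 relative to that median. In kidney 0 of 11 were called in either direction.

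In the list of serine and glycine use, Gldc, the glycine-cleaving decarboxylase, was higher in FAO cells and in liver. It stood at 222 with DFO, against 5.79 in untreated FAO cells, which was not well above background, a bound of at least 10.4-fold. In liver it stood at 8362 with the iron-free diet, against 4149.6 with the control diet, a difference of 1.01 ± 0.25, just past the threshold. Scaling to the 75th percentile of all gene probes lowered measured liver differences alike, Phgdh from 2.68 to 2.63. The same shift takes Gldc below the threshold in liver. Gldc was the 1 gene called higher among 16 measured in FAO cells and among 18 in liver. Lower in liver were Sfxn1, the mitochondrial serine carrier, at -1.87 ± 0.32 (192 in iron-free liver, against 705 in control liver), and Sdsl, a serine dehydratase-like enzyme, at -1.36 ± 0.36. With scaling to detected probes Sdsl was at -0.77, or -1.36 relative to the median of all genes. In FAO cells Gatm was lower by at least 2.01-fold with spots in noisy blocks, and in kidney 0 of 14 were called.

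In the methionine cycle and transsulfuration list 1 of 15 genes was called in FAO cells, Cth, the enzyme after Cbs on the way to cysteine, lower, at -1.48 ± 0.25 with DFO. In liver 0 of 16 were called. In kidney 1 of 14 was, Csad, of taurine synthesis, at 334 with the iron-free diet, against 109 with the control diet, at least 3.05-fold higher.

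Several enzymes of the set, called in liver or not, are known targets of ATF4, so genes of the amino acid response were listed as well. In liver 1 of 19 was higher, Ddit4, at least 2.99-fold with spots in noisy blocks, and 0 were lower, with a median of 0.02. Atf4 itself differed by -0.18 ± 0.11 and Asns, asparagine synthetase, by 0.63 ± 0.44. In FAO cells 5 of 21 were higher, against 4.05% of all genes measured, and the list median was 0.09, against 0.03. The 5 were Cebpb by 1.54 ± 0.16, Ddit4 by 1.49 ± 0.08, Trib3 by 1.38 ± 0.29, Chac1 by 1.34 ± 0.40 and Vegfa by 1.30 ± 0.15. Atf4 itself was at 0.15 ± 0.08 and Asns at -0.47 ± 0.27. Slc7a5 was lower, at -1.14 ± 0.53 with a spot in a noisy block. Without noisy blocks Slc7a5 was at -0.86 and no longer called, and Ddit3 was at 2.14, against 0.87 with all spots, which made 6 higher and 0 lower. No serine or folate enzyme of the set was called there. In kidney 0 of 16 were higher, and Chac1 was lower, at -1.13 ± 1.16, a difference smaller than its spot standard error.

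Genes of the S phase of the cell cycle were listed because folate carbon units feed thymidylate synthesis. In liver 6 of 13 were higher with a median of 0.84: Rrm2 by 3.21 ± 0.28 (another of its probes gave 0.10), Mcm3 by 2.47 ± 0.60, Ccne1 by 1.48 ± 0.50 with spots in noisy blocks, Mcm2 by 1.38 ± 0.50, Mcm4 by 1.36 ± 0.43 and Mcm7 by 1.10 ± 0.27. Tyms, the folate-dependent thymidylate synthase of that list, was at 0.16 ± 0.60. In FAO cells 0 of 15 were higher, and Ccne1 was lower by at least 23.5-fold with spots in noisy blocks. Without those blocks Ccne1 had no value in FAO cells or liver, which left 0 lower in FAO cells and 5 higher in liver. In kidney 0 of 8 were called.

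**Figure D4:**
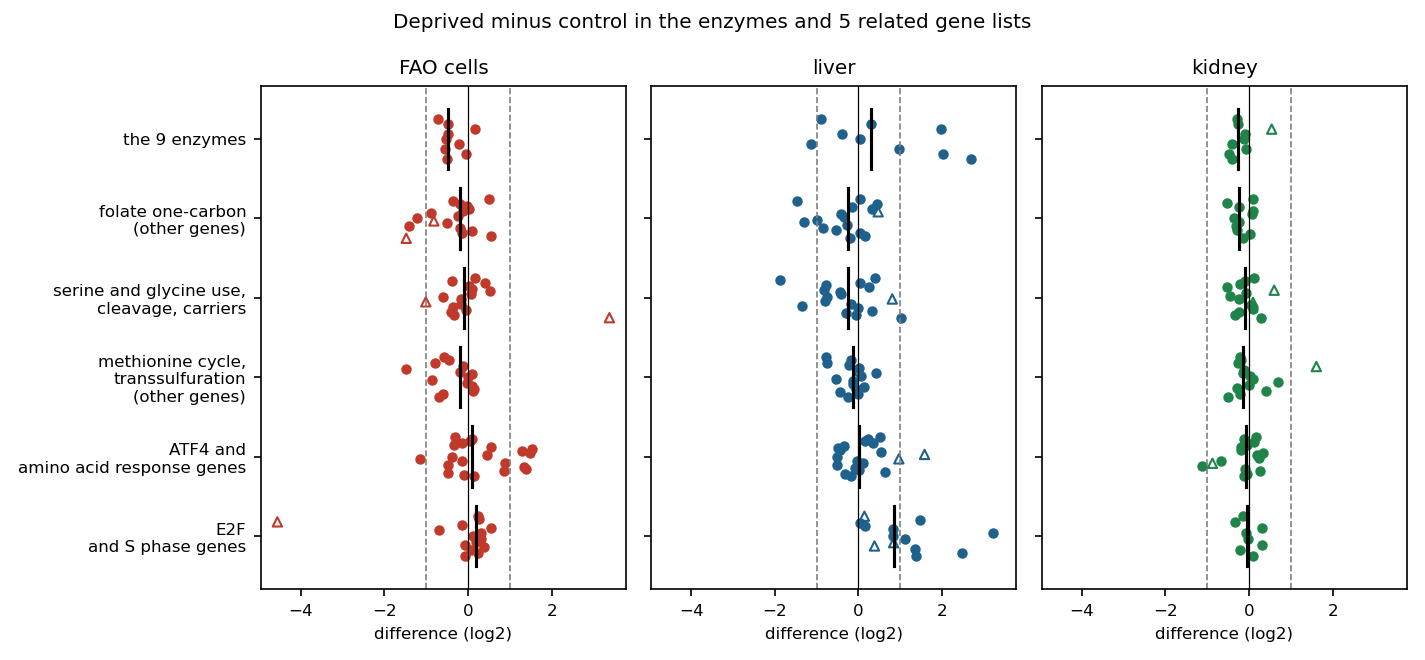
Log2 differences of the 9 enzymes and of 5 related gene lists in FAO cells (DFO minus untreated), liver and kidney (iron-free minus control diet). Points are genes, open triangles are bounds, black bars are medians and dashed lines mark 2-fold. In liver the S phase genes have a median of 0.84, while 3 of the enzymes stand near or above 2.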

How the data were processed

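Per the file headers, the authors extracted each spot's intensity using Feature Extraction 10.7.3.1 (Agilent, design 028279, which names rn4). The deposited intensity used, gProcessedSignal, is background-subtracted. The authors' deposited table also holds log2 values per probe, used here only as an alternative. It names samples in its own column headings and gives symbols and gene IDs.

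The 58717 gene spots per array were taken, outlier-flagged spots (680 to 1215 per array) left out, log2 averaged over a probe's spots, and arrays brought to a common 75th percentile over 9091 probes (29.9%) that were well above background everywhere. No spot was saturated. Genes follow the gene ID, with the brightest probe on average standing for a gene, and 6095 probes without one were left out of gene counts. Symbols are current RefSeq ones (19142 of 19958 genes matched). With 1 array per group the only call is one of size, 2-fold or more, measured or as a bound. Bounds set the bright signal against the higher of the dim probe's own signal and the dim array's lowest signal well above background. Spot errors pool the spread between spots in 20 bins of signal, and the number of arrays limits the precision.

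All members were named in every comparison, every gene called in a pathway list (at most 6 per list), and the 2 nearest genes of each member. Members and lists were chosen with earlier results of these data known. Bounds enter list medians at their bound. Steps were checked on simulated data. Python 3.11.15, numpy 2.4.6, pandas 2.3.3, and for normexp limma 3.58.1 in R 4.3.3 were used. Alternatives were 3 scalings, background correction, the handling of noisy blocks, outlier spots and several probes, the authors' log2 values, the size rule and the background filter. A planned protein comparison was not run. Values of some list genes are not reported here.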

Additional observations from a re-analysis of the deposited data

How the results depend on the processing

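Of 216 differences of the 9 enzymes recomputed under alternatives, 188 moved by less than their spot error and 28 moved by more, and none of those called at least 2-fold turned sign. The 8 alternatives are not all separate checks. Averaging a gene's measured probes changed only Mthfd2 in FAO cells. The authors' log2 values and the 75th percentile of all gene probes gave nearly the same values, 2.63 each for Phgdh in liver. In liver Phgdh, Psat1 and Mthfd2 stayed at least 2-fold higher under all 8 alternatives, with ranges of 2.49 to 3.26, 1.11 to 2.61 and 1.22 to 2.56. Scaling to the median of each array's detected probes gave the liver differences of all genes a median of 0.59, against 0.02, and called 4 enzymes higher (Psph joining at 1.54) and 0 lower against 1. Relative to that median Shmt1 was at -1.15 and Psph at 0.95. This scaling shifts all measured genes of a comparison by the same amount. Values relative to its median therefore lie near the reported ones by construction, here and wherever they are given above, and are no separate check. Normexp correction, on the median signal and chosen after seeing the data because the files hold no mean signal for the planned form, kept the count of 1 lower in liver with Gnmt (-1.27) in place of Shmt1 (-0.48). With a 1.5-fold rule the lower enzymes were 2 in liver (Shmt1 and Gnmt) and 1 in FAO cells (Gnmt), against 1 and 0. Over all genes, the reported settings gave 663 higher and 306 lower in liver, 433 and 689 in FAO cells and 278 and 113 in kidney. Scaling to the median of detected probes gave 2120 and 78 in liver and 402 and 79 in kidney. Normexp gave 367 and 174 in liver and 187 and 71 in kidney, and leaving out noisy blocks gave 429 and 408 in FAO cells. The cause of these shifts was not tested. The medians of the liver lists other than the S phase genes became 0.34 to 0.60 with scaling to detected probes. No paired analysis was possible because each group is 1 array, which also leaves no replicate to leave out. The Mthfd2 bound in kidney ranged between 0.20 and 0.86 on the log2 scale. Dim signals limit Mthfd2 in kidney and its single-spot probes in liver.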
